A study of Homo sapiens with 6 samples.

Results

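The mitochondrial carrier family was examined in THP-1 cells, a human line derived from an acute monocytic leukaemia, with and without the sodium ionophore monensin. Its members were taken by name: every gene whose symbol is SLC25A followed by a number, together with MTCH1, MTCH2, UCP2 and the pyruvate carrier genes MPC1 and MPC2. This gave 53 of the 58395 genes in the deposited tables, and 46 of the 53 had enough reads to be tested. RNA was sequenced from 3 untreated samples, labelled as having no exposure, and 3 samples kept for 16 h in 1 µM monensin. The label of the untreated samples mentions no vehicle, and monensin and its solvent cannot be told apart here. All 6 samples are the same line, and the labels do not say that they came from separate cultures. If they did not, the spread behind the p-values is a technical one.

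SLC25 carriers are small proteins of the mitochondrial inner membrane that move solutes between the cytosol and the matrix, and a few members sit in the outer membrane or in peroxisomes. Each is built from a repeated pair of membrane-crossing helices, and most exchange a substrate on one side for another substrate on the other side. They link the respiratory chain and the matrix enzymes to the rest of the cell by carrying ADP and ATP, phosphate, carboxylic acids, amino acids, nucleotides, cofactors and iron. MPC1 and MPC2 belong to a separate family and together form the carrier that brings pyruvate into the matrix.

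Gene counts came to between 22975888 and 25710513 per library. Libraries of a group differed by more than counting noise, with a chi-square per degree of freedom that ranged from 1.93 to 5.09 and was highest for monensin libraries 1 and 3. Of 11 monocytic marker genes all were detected, although CD14 was low, at 0.480 ± 0.0691 CPM in untreated and 2.37 ± 0.289 CPM in monensin libraries (mean ± SD, n = 3 per group; CPM, the count scaled to a common library size after TMM normalization). Among 9 markers of other cell types, CD3E, EPCAM and KRT5 had 0 counts in all 6 libraries. The summed level of these 9 markers ran from 260.1 to 268 CPM in untreated and from 309 to 331 CPM in monensin libraries, nearly all of it from PECAM1, an adhesion molecule that monocytes also carry. Among the 11 monocytic markers, 4 were raised (CD14, SPI1, CD4 and FCGR1A) and 4 lowered (LYZ, CD33, PTPRC and MPO). That was near the shares of all tested genes, of which 34.1% were raised and 33.7% lowered. The sum of the 11 markers ran from 2683 to 2767 CPM in untreated and from 2242 to 2383 CPM in monensin libraries. The largest change in CPM among them was that of LYZ, from 791 ± 14.3 CPM in untreated to 292 ± 24.2 CPM in monensin libraries, so the lower sum does not describe the markers as a group. The part of these marker shifts in the carriers' changes was not tested.

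By edgeR's quasi-likelihood test, 15 of the 46 tested carriers were called raised (32.6%) and 22 lowered (47.8%), taking an adjusted p under 0.05, and 9 were not called. Over all 16542 tested genes, 34.1% were raised, 33.7% were lowered and 67.8% were called in either direction, so the share of raised carriers was near the background. The share of lowered carriers was above it, with no test made of that difference. The median log2 fold change was -0.12 over the 46 tested carriers and 0.02 over all tested genes. Most changes were small: 2 carriers rose at least 2-fold (SLC25A27 and SLC25A34, both with few reads) and 0 fell that far, against 9.41% and 3.83% of all tested genes. The ranges of the groups did not overlap for 37 carriers, 15 higher and 22 lower with monensin, against 71.1% of all tested genes in either direction, 35.9% higher and 35.2% lower. Over 16523 tested genes, log2 fold changes correlated with GC content at r = 0.222 and with log2 exonic length at r = -0.0903. Exonic length is that of all annotated exons of a gene together. An alternative fit, called the GC-corrected fit here, removed the trends in GC content and exonic length. In bulk RNA, fewer cells of a type and less RNA per cell cannot be told apart.

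Taken per kb of exonic length, the family spanned more than 3 orders of magnitude. The ADP/ATP carrier SLC25A5 was highest in untreated cells, at 426 ± 11.03 CPM per kb (mean ± SD, n = 3), followed by its relative SLC25A6 at 257 ± 9.17 and the citrate carrier SLC25A1 at 102 ± 2.18. The phosphate carrier SLC25A3, at 70.0 ± 0.222, and MTCH1, at 69.3 ± 1.93, were next, with the mean of SLC25A3 inside the SD of MTCH1. The place of SLC25A3 depends on the length used, because its annotated exons add up to 8896 nt. Per kb of its median coding transcript, 1359 nt, it stood at 458 CPM, between SLC25A5 at 502 and SLC25A6 at 269.6. In monensin libraries SLC25A6 stood first at 449.7 ± 23.8 CPM per kb of exonic length, ahead of SLC25A5 at 386 ± 15.8.

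**Figure D1:**
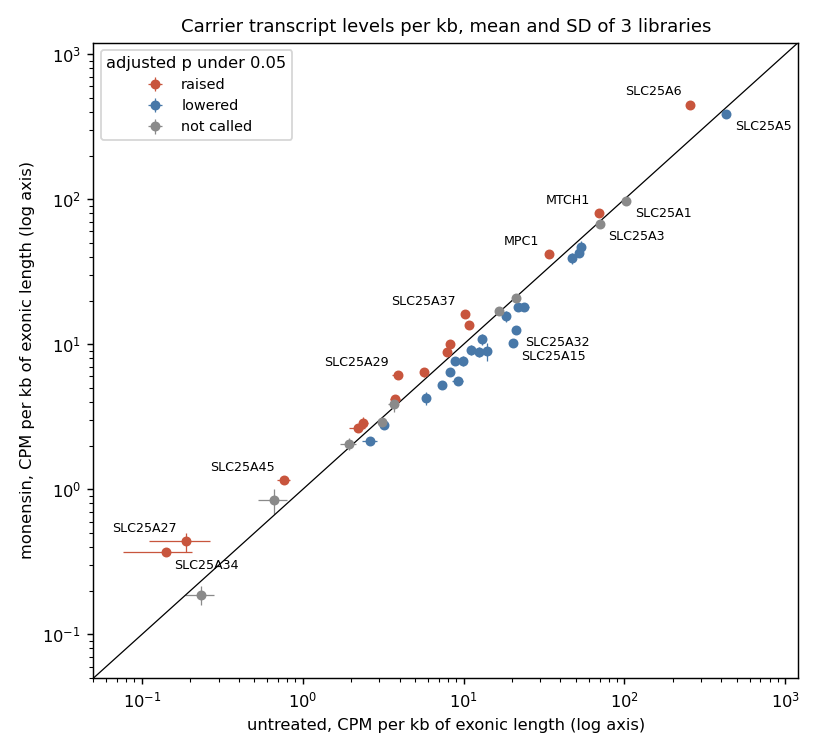
Level of each of 45 tested carriers in untreated (x axis) and monensin libraries (y axis), in CPM per kb of exonic length on log axes. Points are means and bars are SDs of 3 libraries, coloured by the call at an adjusted p under 0.05, and the diagonal marks equal levels. SLC25A6 lies above the diagonal near the top, while SLC25A15 and SLC25A32 lie furthest below it among the mid-level carriers.

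All reads of the family together came to 4285, 4207 and 4183 CPM in the untreated libraries and 4279, 4343 and 4530 CPM in the monensin libraries. Those ranges overlapped after TMM normalization. Without SLC25A6 the sum was 3669 ± 33.6 CPM in untreated and 3411 ± 80.6 CPM in monensin libraries, and the 2 ranges did not overlap. Both outcomes turned with total counts alone, a scaling added after seeing the data. The sum then ran from 4061 to 4156 in untreated and from 4434 to 4602 in monensin libraries, without overlap, and the sum without SLC25A6 from 3534 to 3595 and from 3476 to 3559, with overlap. SLC25A3, SLC25A5 and SLC25A6 held 43.0% ± 0.345 of the family's counts in untreated and 49.2% ± 0.496 in monensin libraries.

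Promoter sequences were read for 45 of the 53 genes from RefSeq (GRCh38.p14), each 300 bases long from 250 before to 50 after the annotated start. They were searched on both strands for the C/EBP-ATF element TGATGNAA, the NRF1 element (GCGCA and GCGC with any base between them) and the E box CACGTG, and no matches in a member overlapped. The E box was present in 9 of the 45, or 20%, against 7.44% of all 27305 promoters and 10.1% of the 10555 matched to tested genes. Among those 9, MTCH1, SLC25A33 and SLC25A38 were raised, MTCH2, SLC25A13, SLC25A36 and SLC25A46 were lowered, SLC25A51 was not called and SLC25A31 was not tested. By these calls the E box stood in promoters of raised and of lowered carriers, including the pairs MTCH1 and MTCH2 and SLC25A33 and SLC25A36. Not all of the calls held. In the GC-corrected fit MTCH1, SLC25A36 and SLC25A46 were not called (adjusted p = 0.863, 0.92 and 0.881). MTCH2, SLC25A13, SLC25A33 and SLC25A38 kept their call and direction there, but SLC25A33 lost its call in 7 of 14 alternative fits. A part of the E box in these changes was not tested. The NRF1 element was found in 6 of the 45 (13.3%, against 11.6% of promoters of tested genes), among them MPC2 and SLC25A11, which fell. The C/EBP-ATF element was found in 1 of the 45, SLC25A11, against 1.67% of promoters of tested genes, and in 0 of the 12 raised carriers with a sequence. These matches are descriptions of letters in a window and not evidence of binding.

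The 150 bases before the start are shown for 6 raised or lowered carriers that hold a match there, to set carriers of opposite direction side by side, and for SLC25A6, the carrier with the most reads added, which holds none. They are written 5′ to 3′ on the strand of the gene, with matches to a motif in capitals. The first 3 were raised, the next 3 lowered, and the last is SLC25A6, also raised. Positions on GRCh38.p14 are MTCH1 chr6:36986197-36986346 (-), SLC25A33 chr1:9539315-9539464 (+), SLC25A38 chr3:39383220-39383369 (+), SLC25A36 chr3:140941686-140941835 (+), SLC25A46 chr5:110738857-110739006 (+), SLC25A11 chr17:4940047-4940196 (-), SLC25A6 chrX:1392114-1392263 (-).
MTCH1: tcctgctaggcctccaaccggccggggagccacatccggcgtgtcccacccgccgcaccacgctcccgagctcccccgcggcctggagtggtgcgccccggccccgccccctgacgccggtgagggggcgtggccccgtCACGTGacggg
SLC25A33: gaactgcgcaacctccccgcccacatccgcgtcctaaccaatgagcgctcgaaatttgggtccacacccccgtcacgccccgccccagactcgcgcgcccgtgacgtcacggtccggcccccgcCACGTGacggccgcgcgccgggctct
SLC25A38: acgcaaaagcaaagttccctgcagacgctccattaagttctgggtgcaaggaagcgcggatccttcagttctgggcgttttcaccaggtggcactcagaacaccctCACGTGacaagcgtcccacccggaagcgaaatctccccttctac
SLC25A36: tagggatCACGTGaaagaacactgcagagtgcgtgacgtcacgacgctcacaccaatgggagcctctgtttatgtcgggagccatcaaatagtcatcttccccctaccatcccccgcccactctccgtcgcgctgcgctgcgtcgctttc
SLC25A46: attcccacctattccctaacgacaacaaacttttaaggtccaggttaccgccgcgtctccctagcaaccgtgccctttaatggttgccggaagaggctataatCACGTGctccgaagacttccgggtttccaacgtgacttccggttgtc
SLC25A11: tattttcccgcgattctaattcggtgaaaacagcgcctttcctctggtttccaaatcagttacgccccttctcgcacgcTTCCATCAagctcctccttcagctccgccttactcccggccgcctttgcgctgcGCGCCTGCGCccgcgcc
SLC25A6: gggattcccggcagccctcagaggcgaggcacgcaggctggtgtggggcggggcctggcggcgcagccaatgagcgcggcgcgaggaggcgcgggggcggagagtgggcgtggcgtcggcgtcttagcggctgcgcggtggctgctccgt
The capitals mark an E box in the first 5 sequences, and in SLC25A11 a C/EBP-ATF element followed by an NRF1 element, both read from the opposite strand.

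The ADP/ATP carriers exchange matrix ATP for cytosolic ADP, and SLC25A3 supplies the phosphate for ATP synthesis. In this group the isoform SLC25A6 rose while SLC25A5 fell slightly. The ADP/ATP carrier with the highest level changed from SLC25A5 to SLC25A6, by CPM and per kb of exonic length. Per kb of median coding transcript the margin was narrow, with SLC25A6 at 472 and SLC25A5 at 454 CPM in monensin libraries. Whether the order also changed on GC-corrected levels was not tested. SLC25A6 lies on chromosome X from 1386152 to 1392724 (GRCh38), in the pseudoautosomal region. It had 579, 546 and 543 CPM in the untreated and 924, 969 and 1026 CPM in the monensin libraries. Every monensin library was above every untreated library, a 1.75-fold rise of the means (log2 fold change 0.81, SE 0.04, adjusted p = 3.29e-10). Its transcripts are rich in G and C, and its log2 fold change was 0.49 in the GC-corrected fit (adjusted p = 1.21e-07). SLC25A5, on chromosome X from 119468400 to 119471319, had 656, 638 and 623 CPM in the untreated and 562, 569 and 606 CPM in the monensin libraries. The 2 groups did not overlap, but its fall was small (log2 fold change -0.14, SE 0.04, adjusted p = 0.00585) and was not called when libraries were scaled by total counts alone (log2 fold change -0.06, adjusted p = 0.181). In the GC-corrected fit the log2 fold change of SLC25A5 was -0.24 (adjusted p = 8.06e-05).

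Within each library, SLC25A5 made up 61.8%, 62.5% and 62.0% of the ADP/ATP carrier counts per kb in the untreated and 46.6%, 45.7% and 45.8% in the monensin libraries. The share of SLC25A6 was 37.4% ± 0.378 and 53.6% ± 0.456 (mean ± SD, n = 3 per group). SLC25A4, the isoform typical of heart and muscle, held under 1% of them in all 6 libraries. Its level was 15.1, 14.5 and 15.4 CPM in the untreated and 13.4, 14.9 and 13.8 CPM in the monensin libraries (log2 fold change -0.09, SE 0.07, adjusted p = 0.254), with overlapping ranges. SLC25A3 had 625, 622 and 622 CPM in the untreated and 599, 597 and 619 CPM in the monensin libraries, and its groups were close together without overlapping (log2 fold change -0.04, SE 0.04, adjusted p = 0.318). In the GC-corrected fit SLC25A3 was called in the other direction (log2 fold change 0.13, adjusted p = 0.00593). SLC25A31, the testis isoform, had 0 counts in all 6 libraries, where the limit that a count of 0 allows, 3 counts, corresponds to between 0.117 and 0.129 CPM by library (counting error only).

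**Figure D2:**
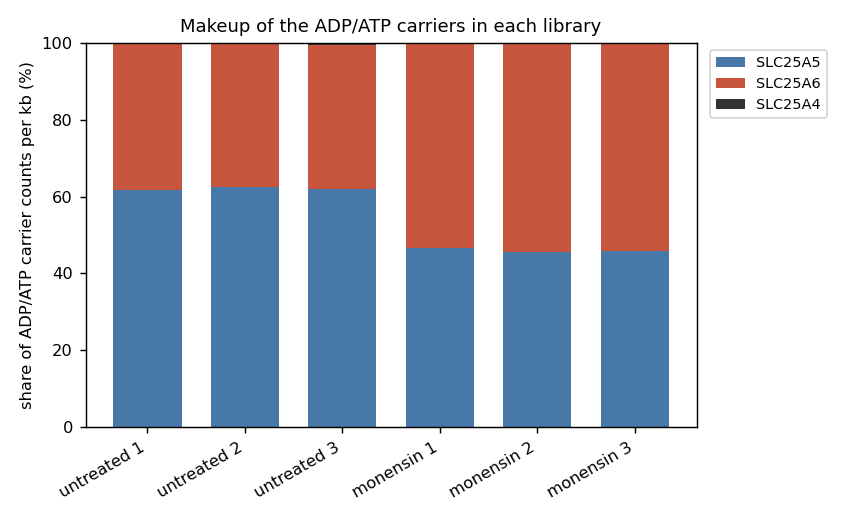
Share of each ADP/ATP carrier in the counts per kb of SLC25A4, SLC25A5 and SLC25A6, in percent, for each of the 6 libraries. The SLC25A6 part is smaller than the SLC25A5 part in all 3 untreated libraries and larger in all 3 monensin libraries.

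The ATP-Mg/phosphate carriers are calcium-regulated and set the adenine nucleotide content of the matrix. Only SLC25A24 of the 4 was called, as lowered, against 67.8% of all tested genes called in either direction. SLC25A24 had 117, 130.1 and 125 CPM in the untreated and 111, 109 and 95.1 CPM in the monensin libraries (log2 fold change -0.24, SE 0.06, adjusted p = 0.00215). Its groups did not overlap, and monensin library 3 was the lowest. That fall was absent in the GC-corrected fit (log2 fold change 0.04, adjusted p = 0.561). SLC25A25 had 10.3, 10.1 and 8.29 CPM in the untreated and 9.19, 11.1 and 10.1 CPM in the monensin libraries (log2 fold change 0.09, SE 0.10, adjusted p = 0.453). A gene on its opposite strand, SLC25A25-AS1, had 310, 226 and 326 counts in untreated and 564, 512 and 479 in monensin libraries. No source used here gives the strand setting of the counting, so reads of the 2 genes cannot be told apart where they overlap. Neither SLC25A23 (log2 fold change 0.03, SE 0.05, adjusted p = 0.624) nor SLC25A41, with 21 to 39 counts per library (log2 fold change 0.34, SE 0.23, adjusted p = 0.206), was called. SLC25A23 was called as raised with total counts alone (log2 fold change 0.11, adjusted p = 0.0477) and as lowered in the GC-corrected fit (log2 fold change -0.13, adjusted p = 0.0353).

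Among carriers of pyrimidine nucleotides and cofactors, 5 of 9 tested members fell and 3 rose, against 33.7% and 34.1% of all tested genes. Differences from these shares were not tested for any role group. The larger changes were those of SLC25A32 and SLC25A17. SLC25A32, which takes up folate and has been linked to FAD transport, had 74.7, 79.5 and 77.1 CPM in the untreated and 48.2, 44.5 and 44.7 CPM in the monensin libraries. All 3 monensin libraries were below the untreated range, at 0.594 of the untreated mean (log2 fold change -0.75, SE 0.05, adjusted p = 3.87e-09). SLC25A17, a peroxisomal carrier of coenzyme A and related nucleotides, had 38.2, 38.5 and 33.1 CPM in the untreated and 21.7, 22.7 and 22.9 CPM in the monensin libraries (log2 fold change -0.71, SE 0.07, adjusted p = 1.6e-07). It fell to 0.613 of the untreated mean with no overlap. The S-adenosylmethionine carrier SLC25A26 fell less (log2 fold change -0.20, SE 0.07, adjusted p = 0.0139). It was not called with total counts alone (adjusted p = 0.13), in the GC-corrected fit (adjusted p = 0.067) or without monensin library 2 (adjusted p = 0.0562).

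SLC25A33 and SLC25A36 both carry pyrimidine nucleotides into mitochondria, and they moved apart. SLC25A33 had 21.9, 21.5 and 22.5 CPM in the untreated and 23.02, 24.4 and 26.6 CPM in the monensin libraries, a small rise without overlap (log2 fold change 0.17, SE 0.07, adjusted p = 0.0368). Its call did not hold without untreated library 1, 2 or 3 or monensin library 2 or 3 (adjusted p = 0.0763, 0.125, 0.0624, 0.0764 and 0.156 in that order), with no filter on low counts or with DESeq2 (adjusted p = 0.105 and 0.219). SLC25A36 had 81.7, 85.5 and 86.4 CPM in the untreated and 67.2, 70.5 and 61.6 CPM in the monensin libraries (log2 fold change -0.35, SE 0.05, adjusted p = 3.58e-05), with monensin library 3 the lowest. In the GC-corrected fit SLC25A36 was not called (log2 fold change -0.01, adjusted p = 0.92), while SLC25A33 was (log2 fold change 0.28, adjusted p = 0.00151). The count ratio of SLC25A33 to SLC25A36 was 0.269, 0.252 and 0.260 in the untreated and 0.343, 0.346 and 0.432 in the monensin libraries.

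SLC25A16 and SLC25A42 are linked to coenzyme A supply of the matrix. SLC25A42 had 10.1, 11.5 and 10.7 CPM in the untreated and 11.8, 14.2 and 13.1 CPM in the monensin libraries (log2 fold change 0.27, SE 0.09, adjusted p = 0.0112), and SLC25A16 had 31.7, 29.03 and 27.5 CPM in the untreated and 32.8, 33.1 and 32.6 CPM in the monensin libraries (log2 fold change 0.16, SE 0.06, adjusted p = 0.0314). The groups did not overlap for either gene, yet both calls were weak. SLC25A42 lost its call with DESeq2, in the GC-corrected fit and without monensin library 2 (adjusted p = 0.0953, 0.36 and 0.0784). SLC25A16 lost it with DESeq2 or no filter (adjusted p = 0.191 and 0.093), and without untreated library 2 or 3 or monensin library 1 or 2 (adjusted p = 0.112, 0.192, 0.0658 and 0.098 in that order). In the GC-corrected fit its log2 fold change was 0.43. SLC25A51, an NAD carrier, was not called (log2 fold change 0.08, SE 0.09, adjusted p = 0.435), and its near-copy SLC25A52 had 0 to 5 counts per library and was not tested.

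**Figure D3:**
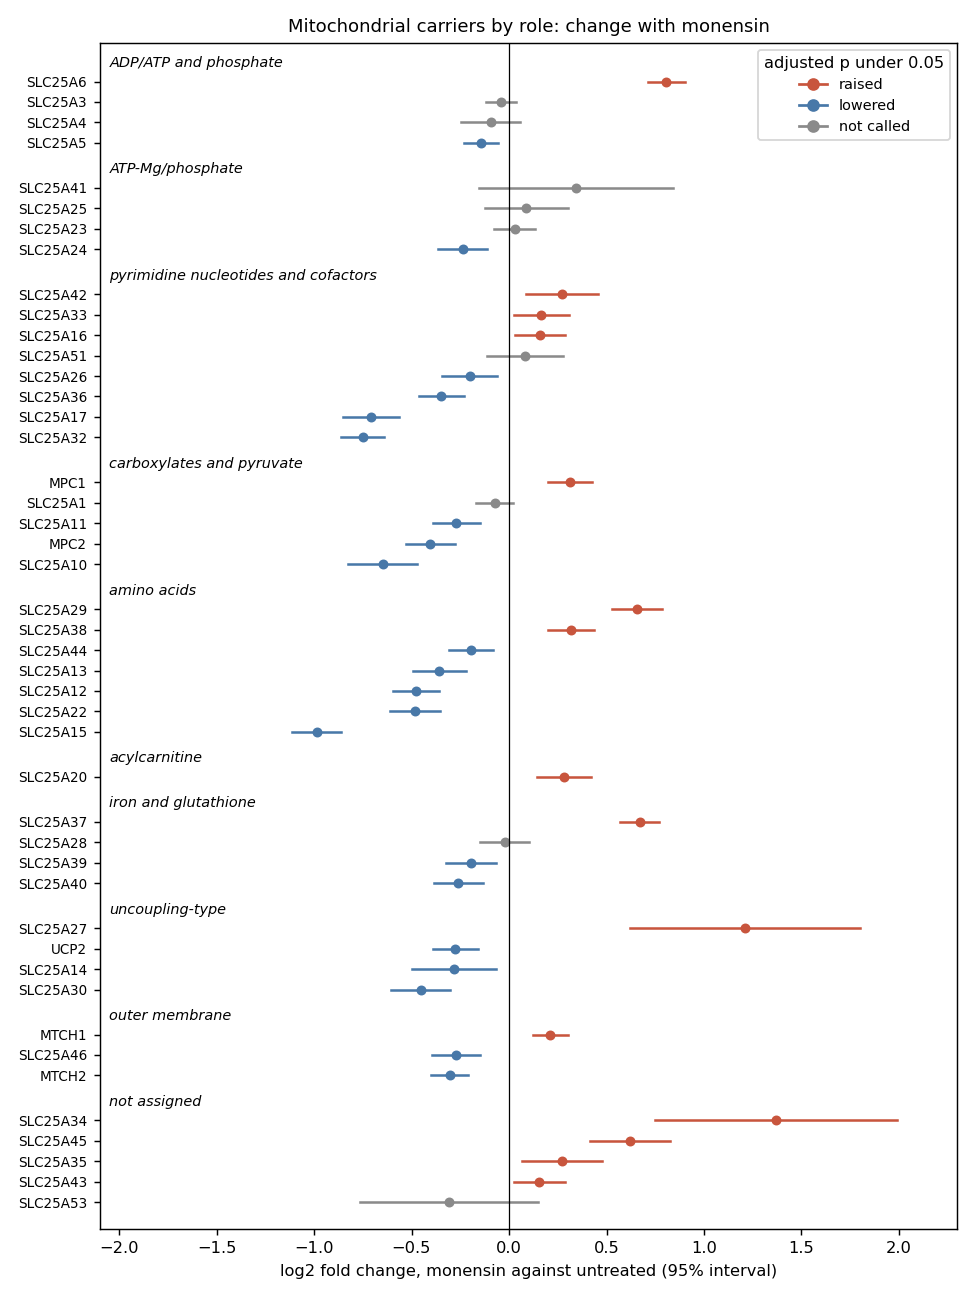
Log2 fold change of monensin against untreated for 45 tested carriers, grouped by role, with 95% intervals derived from the edgeR F test. Colours give the call at an adjusted p under 0.05; among the carriers with an interval on 1 side of 0, SLC25A15 is the most lowered, at -0.99, and SLC25A34 the most raised, at 1.37, with a wide interval.

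Of 5 tested carriers of carboxylic acids and pyruvate, 3 were lowered and MPC1 was raised, against 33.7% and 34.1% of all tested genes. SLC25A10, which exchanges malate or succinate for phosphate, had 39.3, 35.2 and 35.9 CPM in the untreated and 20.6, 22.8 and 27.2 CPM in the monensin libraries. All monensin libraries lay below the untreated range, at 0.640 of the untreated mean (log2 fold change -0.65, SE 0.08, adjusted p = 4.86e-06). SLC25A11, the oxoglutarate carrier of the malate-aspartate shuttle, had 61.1, 56.4 and 57.7 CPM in the untreated and 45.8, 47.6 and 52.0 CPM in the monensin libraries. It fell by less and without overlap (log2 fold change -0.27, SE 0.06, adjusted p = 0.000632), with a log2 fold change of -0.54 in the GC-corrected fit. The citrate carrier SLC25A1 had 219, 212 and 211 CPM in the untreated and 194, 202 and 215 CPM in the monensin libraries, with overlapping ranges (log2 fold change -0.07, SE 0.04, adjusted p = 0.161). SLC25A1 was called as lowered without monensin library 3 (log2 fold change -0.11, adjusted p = 0.0235) and in the GC-corrected fit (log2 fold change -0.39, adjusted p = 1.45e-06). SLC25A21, the oxoadipate carrier, had 0 counts in all 6 libraries.

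The 2 subunits of the pyruvate carrier changed in opposite directions. MPC1 had 55.3, 50.6 and 50.5 CPM in the untreated and 62.9, 67.0 and 64.5 CPM in the monensin libraries, and rose 1.24-fold (log2 fold change 0.31, SE 0.05, adjusted p = 8e-05). MPC2 had 64.7, 60.9 and 57.2 CPM in the untreated and 44.4, 44.6 and 49.3 CPM in the monensin libraries, and fell to 0.757 of its untreated mean (log2 fold change -0.40, SE 0.06, adjusted p = 2.11e-05). Neither pair of groups overlapped. The count ratio of MPC1 to MPC2 was 0.854, 0.831 and 0.883 in the untreated and 1.42, 1.502 and 1.31 in the monensin libraries. MPC2 thus had more reads than MPC1 in all untreated libraries and fewer in all monensin libraries. That crossing was limited to read counts, which are not scaled for length. Per kb of exonic length MPC1 was above MPC2 in all 6 libraries. The mean levels of MPC1 and MPC2 were 33.7 and 23.9 CPM per kb in untreated and 41.9 and 18.1 in monensin libraries.

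Amino acid carriers held the largest fall of the well-measured members, with 5 of 7 tested genes lowered and 2 raised. Over all tested genes, 33.7% were lowered and 34.1% raised. SLC25A15, the ornithine carrier that serves the urea cycle and arginine metabolism, had 35.7, 37.4 and 37.99 CPM in the untreated and 18.9, 19.2 and 17.8 CPM in the monensin libraries. Its monensin libraries were all below the untreated range, at 0.504 of the untreated mean (log2 fold change -0.99, SE 0.06, adjusted p = 8.91e-10). SLC25A29, a carrier of arginine, lysine and other basic amino acids, went the other way, with 29.8, 26.6 and 30.5 CPM in the untreated and 44.3, 46.5 and 46.1 CPM in the monensin libraries. It rose 1.58-fold with no overlap (log2 fold change 0.66, SE 0.06, adjusted p = 1.17e-07). SLC25A2, a close relative of SLC25A15, had 0 to 2 counts per library and was not tested.

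SLC25A12 and SLC25A13, the calcium-regulated aspartate/glutamate carriers of the malate-aspartate shuttle, both fell. SLC25A12 had 37.97, 39.5 and 36.6 CPM in the untreated and 27.7, 27.0 and 27.0 CPM in the monensin libraries (log2 fold change -0.48, SE 0.06, adjusted p = 1.58e-06), and SLC25A13 had 35.3, 37.8 and 36.8 CPM in the untreated and 28.2, 30.9 and 26.6 CPM in the monensin libraries (log2 fold change -0.36, SE 0.06, adjusted p = 0.000125). Neither gene's groups overlapped. In the GC-corrected fit their log2 fold changes were -0.29 and -0.23, both still called. The span of SLC25A12 overlaps HAT1 on the opposite strand over 61235 bases, and HAT1 fell (log2 fold change -1.05, adjusted p = 1.13e-11), so reads of the 2 genes may be mixed if the counting ignored strand. SLC25A22, the more abundant of the glutamate carriers, had 58.3, 56.6 and 58.3 CPM in the untreated and 39.9, 38.7 and 45.4 CPM in the monensin libraries, and fell without overlap (log2 fold change -0.48, SE 0.06, adjusted p = 3.34e-06). Its relative SLC25A18 had 0, 0 and 0 counts in the untreated and 2, 2 and 1 in the monensin libraries, all under the 3 counts that a count of 0 allows.

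SLC25A38, a glycine carrier needed for haem synthesis in red cell precursors, had 29.6, 30.1 and 28.7 CPM in the untreated and 35.6, 36.4 and 38.3 CPM in the monensin libraries. Its groups did not overlap, and the rise was 1.248-fold (log2 fold change 0.32, SE 0.06, adjusted p = 0.000109), or 0.18 on the log2 scale in the GC-corrected fit (adjusted p = 0.0106). SLC25A44, a branched-chain amino acid carrier, had 61.9, 65.4 and 66.2 CPM in the untreated and 53.6, 58.5 and 56.9 CPM in the monensin libraries. It fell slightly without overlap (log2 fold change -0.19, SE 0.05, adjusted p = 0.00359) and was not called with total counts alone (adjusted p = 0.0747). SLC25A20, which exchanges acylcarnitines for carnitine in fatty acid oxidation, had 16.4, 16.1 and 16.7 CPM in the untreated and 19.2, 19.7 and 20.9 CPM in the monensin libraries. Each monensin library was above the untreated range (log2 fold change 0.28, SE 0.06, adjusted p = 0.00129), and the log2 fold change was 0.17 in the GC-corrected fit (adjusted p = 0.0293).

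Among iron and glutathione carriers, SLC25A37 rose while its close relative SLC25A28 was not called. SLC25A37 is mitoferrin-1, the iron importer prominent in red cell precursors, and SLC25A28 is the more widely expressed mitoferrin-2. SLC25A37, on chromosome 8 from 23528805 to 23575463, had 80.4, 80.9 and 86.8 CPM in the untreated and 135, 127 and 132 CPM in the monensin libraries. The groups were well apart, with a 1.59-fold rise of the means (log2 fold change 0.67, SE 0.05, adjusted p = 5.24e-09). SLC25A28 had 36.9, 36.8 and 38.1 CPM in the untreated and 34.7, 36.2 and 39.2 CPM in the monensin libraries, with overlapping ranges (log2 fold change -0.02, SE 0.06, adjusted p = 0.74). It was called as lowered in the GC-corrected fit (log2 fold change -0.24, adjusted p = 0.00221). The count ratio of SLC25A37 to SLC25A28 was 2.18, 2.20 and 2.28 in the untreated and 3.90, 3.52 and 3.35 in the monensin libraries.

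SLC25A39 and SLC25A40, both linked to glutathione uptake by mitochondria, fell slightly. SLC25A39 had 196, 183 and 188 CPM in the untreated and 156, 155 and 185 CPM in the monensin libraries, and its groups overlapped through monensin library 3 (log2 fold change -0.19, SE 0.06, adjusted p = 0.00962). It was not called with total counts alone (adjusted p = 0.102), without monensin library 1 (adjusted p = 0.0541) or without monensin library 2 (adjusted p = 0.0527). In the GC-corrected fit its log2 fold change was -0.44. SLC25A40 had 65.3, 67.2 and 66.7 CPM in the untreated and 59.2, 56.9 and 50.1 CPM in the monensin libraries (log2 fold change -0.26, SE 0.06, adjusted p = 0.00108), with monensin library 3 the lowest. Its fall was not called in the GC-corrected fit (log2 fold change -0.02, adjusted p = 0.744).

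**Figure D4:**
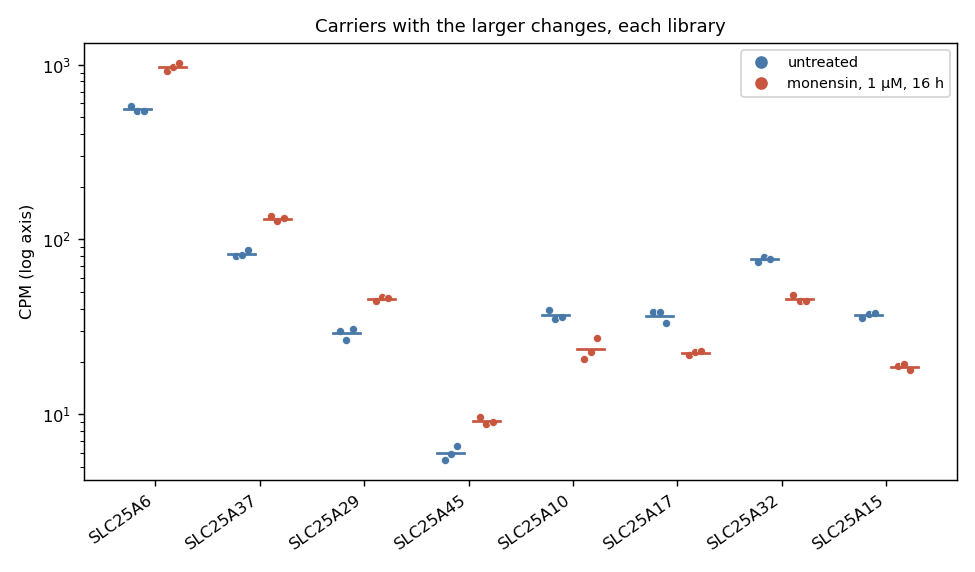
CPM in each library, on a log axis, for the 8 carriers called with an absolute log2 fold change of at least 0.5 and an average log2 CPM of at least 2. Dots are libraries and bars are group means; the 3 monensin and 3 untreated dots do not overlap for any of the 8, with SLC25A6, SLC25A37, SLC25A29 and SLC25A45 higher and SLC25A10, SLC25A17, SLC25A32 and SLC25A15 lower.

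Of the uncoupling-type carriers, UCP2, the form typical of immune cells, had 152, 152 and 155 CPM in the untreated and 123, 118 and 139 CPM in the monensin libraries. It fell without overlap (log2 fold change -0.28, SE 0.05, adjusted p = 0.000353), and by 0.47 on the log2 scale in the GC-corrected fit. SLC25A30, a related carrier, had 38.5, 41.4 and 39.4 CPM in the untreated and 29.9, 31.5 and 25.6 CPM in the monensin libraries (log2 fold change -0.45, SE 0.07, adjusted p = 3.31e-05). Its monensin libraries were all lower, with library 3 the lowest, and its log2 fold change was -0.21 in the GC-corrected fit (adjusted p = 0.0169). SLC25A14 had 8.90, 7.46 and 7.36 CPM in the untreated and 6.47, 6.68 and 6.38 CPM in the monensin libraries. Its groups did not overlap, and its fall (log2 fold change -0.28, SE 0.10, adjusted p = 0.0215) was a call lost with total counts alone, with DESeq2, in the GC-corrected fit, and without untreated library 1 or monensin library 1 (adjusted p = 0.099, 0.0831, 0.0941, 0.118 and 0.0527 in that order). SLC25A27, better known from brain, had counts of 10, 13 and 22 in the untreated and 36, 31 and 39 in the monensin libraries. Its monensin counts were all higher (log2 fold change 1.21, SE 0.28, adjusted p = 0.00114), from a mean of 0.616 ± 0.250 CPM in untreated libraries to 1.44 ± 0.218 CPM.

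In the outer membrane, MTCH2, an insertase for tail-anchored proteins, and MTCH1, its relative, changed in opposite directions. MTCH1 had 223, 212 and 215 CPM in the untreated and 247, 246 and 259.5 CPM in the monensin libraries, and rose 1.16-fold (log2 fold change 0.21, SE 0.04, adjusted p = 0.000293). In the GC-corrected fit MTCH1 was not called (log2 fold change -0.01, adjusted p = 0.863). MTCH2 had 157, 151 and 145 CPM in the untreated and 119.5, 123 and 125 CPM in the monensin libraries, and fell to 0.810 of the untreated mean (log2 fold change -0.30, SE 0.04, adjusted p = 1.86e-05). Neither gene's groups overlapped, and the count ratio of MTCH1 to MTCH2 was 1.42, 1.401 and 1.48 in the untreated and 2.07, 1.99 and 2.08 in the monensin libraries. SLC25A46, which takes part in mitochondrial fission and lipid handling, fell (log2 fold change -0.27, SE 0.06, adjusted p = 0.000614), but not in the GC-corrected fit (log2 fold change -0.01, adjusted p = 0.881).

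Carriers without an agreed substrate in the grouping used here had 4 of 5 tested members raised, against 34.1% of all tested genes. SLC25A45 had 5.45, 5.92 and 6.55 CPM in the untreated and 9.66, 8.84 and 9.04 CPM in the monensin libraries, higher in every monensin library (log2 fold change 0.62, SE 0.10, adjusted p = 3.66e-05). SLC25A34 had counts of 17, 7 and 9 in the untreated and 30, 29 and 28 in the monensin libraries. The monensin counts were all higher (log2 fold change 1.37, SE 0.29, adjusted p = 0.000654), at only 0.449 ± 0.204 CPM in untreated and 1.18 ± 0.0208 CPM in monensin libraries. SLC25A35 rose slightly (log2 fold change 0.27, SE 0.10, adjusted p = 0.0194), which was not called with DESeq2, in the GC-corrected fit, or without untreated library 2 or monensin library 3 (adjusted p = 0.136, 0.421, 0.118 and 0.0715 in that order). SLC25A43 had 26.02, 23.3 and 24.6 CPM in the untreated and 28.4, 27.2 and 26.7 CPM in the monensin libraries. Its small rise (log2 fold change 0.15, SE 0.06, adjusted p = 0.0365) showed no overlap but lost its call with no filter, with DESeq2 and in the GC-corrected fit (adjusted p = 0.128, 0.234 and 0.117), and without untreated library 2 or 3 or monensin library 1 or 2 (adjusted p = 0.202, 0.103, 0.137 and 0.0822 in that order). SLC25A53 had 36, 46 and 34 in the untreated and 29, 31 and 35 in the monensin libraries and was not called (adjusted p = 0.216). SLC25A47 and SLC25A48 had 0 to 6 counts per library and were not tested.

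To ask whether related carriers changed by different amounts, the log2 ratio of their levels was compared between groups for 9 pairs with a two-sided exact permutation test over the 6 libraries. With 3 libraries against 3 this exact permutation test cannot go below p = 0.1, so none of the differences can reach 0.05. The ratio ranges did not overlap for 5 pairs, each at that smallest p of 0.1 (0.18 after Benjamini-Hochberg adjustment over the 9 pairs, exact permutation test). The shifts of the mean log2 ratio with monensin were -0.95 for SLC25A5 over SLC25A6, 0.72 for MPC1 over MPC2, 0.69 for SLC25A37 over SLC25A28, 0.52 for MTCH1 over MTCH2 and 0.51 for SLC25A33 over SLC25A36. In SLC25A33 over SLC25A36, monensin library 3 stood apart, and the shift was 0.40 without it. For the other 4 pairs the ranges overlapped. The shifts were -0.12 for SLC25A12 over SLC25A13 and -0.33 for SLC25A24 over SLC25A25 (exact permutation p = 0.2 for each, 0.257 adjusted), -0.11 for SLC25A16 over SLC25A42 (exact permutation p = 0.4, 0.45 adjusted) and 0.07 for SLC25A39 over SLC25A40 (exact permutation p = 1). The last turned to -0.09 without monensin library 3. Among the shifts with overlapping ranges, that of SLC25A12 over SLC25A13 was -0.05 without monensin library 2, and that of SLC25A16 over SLC25A42 ranged from -0.18 without monensin library 1 to -0.01 without untreated library 1.

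**Figure D5:**
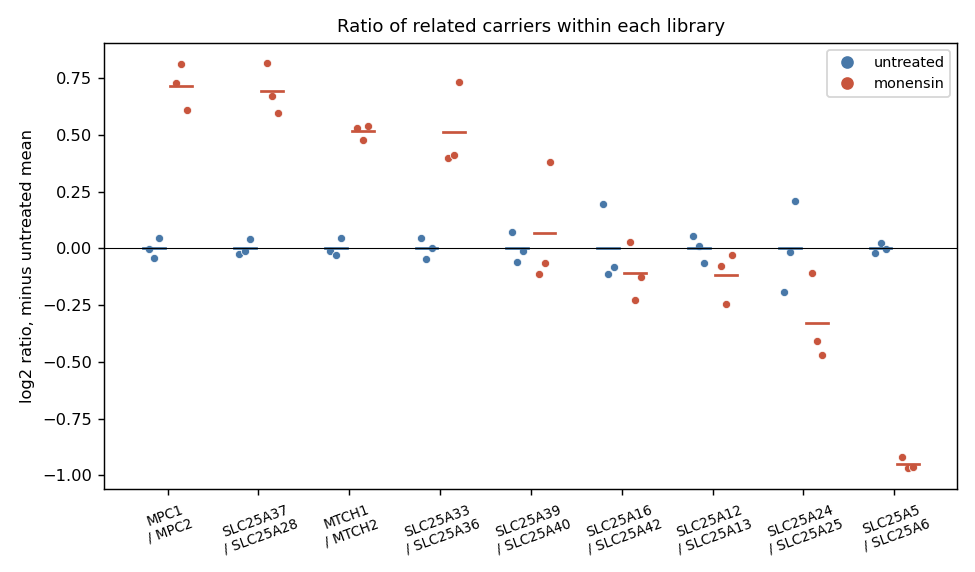
Log2 ratio of the levels of 9 pairs of related carriers in each library, with the untreated mean of each pair set to 0. Dots are libraries and bars are group means. The 3 monensin dots lie above the untreated dots for MPC1 over MPC2, SLC25A37 over SLC25A28, MTCH1 over MTCH2 and SLC25A33 over SLC25A36, below them for SLC25A5 over SLC25A6, and overlap their range for the other 4 pairs.

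A further 3 gene lists describe the surroundings of the carriers, to be read against the 34.1% of all tested genes that rose and the 33.7% that fell. Of 7 genes for the insertion of carriers into the inner membrane, 2 rose and 4 fell (median log2 fold change -0.46). TIMM9 and TIMM10B, small chaperones of the space between the membranes, rose, by 0.26 (adjusted p = 0.00102) and 0.20 (adjusted p = 0.00522) on the log2 scale. TIMM10, the partner of TIMM9, and TIMM22, the channel that inserts carriers, fell, with log2 fold changes of -0.58 (adjusted p = 8.35e-07) and -0.47 (adjusted p = 0.000205). Of 18 tested genes for other mitochondrial transporters and pores, 1 rose and 10 fell (median -0.18). SMDT1, a subunit of the calcium uniporter, rose (log2 fold change 0.23, SE 0.06, adjusted p = 0.00364). The 2 largest falls were those of ABCB10, a transporter linked to haem synthesis, from 122 ± 5.15 to 65.8 ± 3.39 CPM, and the serine carrier SFXN1, from 125 ± 4.64 to 68.4 ± 1.44 CPM.

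Of 26 enzymes that use or make the carried metabolites, 10 rose and 15 fell (median -0.18). The malic enzyme ME1 rose from 19.1 ± 1.15 to 48.2 ± 6.03 CPM. The cytosolic aspartate aminotransferase GOT1 rose from 16.0 ± 1.502 to 37.8 ± 0.304 CPM, while its mitochondrial counterpart GOT2 fell from 92.3 ± 0.618 to 56.3 ± 1.46 CPM. CPT2, which acts on the acylcarnitines that SLC25A20 delivers, fell from 36.4 ± 0.947 to 21.7 ± 1.48 CPM, opposite to the rise of SLC25A20. A further 2 genes were named after their values were seen. MTHFD2, a mitochondrial folate enzyme, rose (log2 fold change 0.96, SE 0.04, adjusted p = 2.51e-11) beside the fall of the folate carrier SLC25A32. ALAS1, which starts haem synthesis from glycine, rose (log2 fold change 1.19, SE 0.04, adjusted p = 2.41e-12) beside the rises of SLC25A38 and SLC25A37.

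In the authors' deposited table of 2410 regulated genes, 3 carriers are listed. Their log2 fold changes in the authors' deposited table are 1.36 for SLC25A34, 1.20 for SLC25A27 and -1.01 for SLC25A15. The first 2 had fewer than 40 counts in each library, and SLC25A15 had 416 to 939. Rows for 45 pseudogene and antisense genes with an SLC25A name were not counted as members. They held 719 to 1115 counts per library in all, against 98108 to 109844 for the family, so reads assigned to those copies were few, while reads with more than 1 alignment stand in a tally line of their own. Counts of SLC25A5 and SLC25A6, which have many pseudogene copies, are uncertain to that extent. Opposite-strand genes also overlap SLC25A26 (LRIG1, log2 fold change -0.64), SLC25A32 (DCAF13, -0.50), SLC25A35 (RANGRF, 0.41), SLC25A22 (PANO1, 0.99), SLC25A30 (TPT1-AS1, 1.615) and SLC25A40 (DBF4, -0.33), among others. On the same strand, AC139530.2 overlaps SLC25A10 over 8304 bases and AL138752.2 overlaps SLC25A51 over 24954 bases. Mixing or loss of reads at these overlaps was not tested.

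Raised carriers had a median transcript GC content of 52.5%, lowered carriers 46.2% and tested carriers that were not called 56.0%. Across the 46 tested carriers the correlation of log2 fold change with GC content was r = 0.28, and across 16523 tested genes it was 0.222. Genes share libraries and are not independent replicates, so these are descriptions. Lowered carriers included GC-rich genes, among them SLC25A10 at 64.9% and SLC25A22 at 64.3%, close to SLC25A6 at 64.2%.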

How the data were processed

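The authors deposited raw gene counts, by Ensembl identifier, of 6 libraries, with 5 tally lines for unassigned reads. Per the labels' protocols, libraries were made from total RNA with a directional kit and sequenced as single reads of 75 nt. Tools listed in the submitters' processing notes are HTSeq 0.11.1, HISAT2 2.1.0, Trimmomatic 038, DESeq2 1.22.2 and bcl2fastq, with the build hg38 (GRCh38). The annotation release and strand setting are not given in the sources used here. Tally lines, 19.1% to 22.0% of tallied reads, were left out. The authors' deposited list of regulated genes gives log2 fold changes without errors.

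The test was the quasi-likelihood F test of edgeR 4.0.16 (R 4.3.3), with treatment as the only term, after its filter on low counts and TMM normalization, which left 16542 genes. P-values were Benjamini-Hochberg adjusted over all of them. Scripts were tested on simulated data. CPM use the TMM library sizes. Positions, lengths and GC content came from GENCODE 29, which holds 58275 of the 58395 identifiers. No protein sequences were used. Of the tested members, 1 is counted in the totals but not reported here by itself. Members, lists and tests were chosen with earlier results of these data known. Per-library values are given for members called with a change of at least 0.5 on the log2 scale and a mean log2 CPM of 2 or more, for the related pairs, and for the most and least changed called member of each role. Some members outside these rules also have them, among them SLC25A1, SLC25A3, SLC25A4, SLC25A14 and SLC25A22. Partner genes are named as the 2 largest rises and falls in each list among those called with a mean log2 CPM of 2 or more. Alternatives were an adjusted p under 0.01, leaving out each library or the mitochondrial chromosome, DESeq2 1.42.0, a block for the replicate number, scaling by RLE or by total counts, dropping the filter or raising it to 1 CPM in 3 libraries with 50 counts in all 6 together, and the GC-corrected fit, in which smooth trends of the fold change in GC content and length were subtracted.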

Additional observations from a re-analysis of the deposited data

How the results depend on the processing

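The counts of 15 raised and 22 lowered carriers stayed within 1.5 times under every alternative run. They were 16 and 16 with total counts alone, 10 and 21 with DESeq2, 12 and 19 in the GC-corrected fit, 10 and 20 at an adjusted p under 0.01, 11 to 14 and 20 to 23 with 1 library left out. With total counts alone the median log2 fold change was -0.03 over the carriers and 0.11 over all tested genes. Of 37 called carriers, 21 kept their direction and call under all 14 alternatives to the fit. Among carriers called in at least 1 of the 2 fits, the GC-corrected fit turned the log2 fold changes of SLC25A3 (0.13), SLC25A24 (0.041), SLC25A23 (-0.13) and MTCH1 (-0.0088), and SLC25A25, called in neither, had -0.03. The cause was not tested. Leaving out 1 library moved the SLC25A39 over SLC25A40 shift between -0.09 (-0.0886, without monensin library 3) and 0.16, and changed the sign of no other pair, though some shifts with overlapping ranges came near 0 (-0.01 for SLC25A16 over SLC25A42). With the replicate number as a block, 15 carriers were raised and 22 lowered, and no carrier's call changed. Same-numbered libraries correlated at r = -0.12, 0.14 and 0.04 in their deviations, and differently numbered ones at -0.20 to 0.16. These values show no sign of pairing by number, but with so few libraries they cannot exclude it. The 7 untested carriers had 0 to 6 counts per library. Among them SLC25A2 lies within the span of TAF7 on the same strand, over 1417 bases. What held these counts low, depth or such an overlap included, was not tested.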
